A study of Saccharomyces cerevisiae with 6 samples.

Results

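The response of budding yeast (Saccharomyces cerevisiae) to 27 h of NAR1 repression was measured as 1 column of treated-to-control ratios. It is 1 of 6 conditions in the series, and its members are all open reading frames with a value in that column. Cells of strain UCC3970 expressed NAR1 in medium with 50 nM estradiol, which was the control RNA. The treated cells had been moved from 50 to 2 nM estradiol for 27 h. The labels name neither the genotype of UCC3970, nor the promoter in front of NAR1, nor the protein through which estradiol acts. The other conditions are used here for comparison. They are the wild type (WT, strain UCC1899) at 3, 11, 19 and 27 h after loss of the mitochondrial genome (mtDNA) and cells homozygous for the ATP1-111 allele (strain UCC3980) at 27 h after the same loss. The mtDNA was removed by 6 h in 30 µg/ml ethidium bromide, and each control was the same strain with intact mtDNA. Cells of all conditions grew in YEPD, a rich glucose medium, and total RNA was compared on 2-colour arrays. For each condition the authors deposited a single averaged ratio per gene. It stands for 6 arrays that covered 3 biological replicates with the dyes both ways round, or for 5 arrays in the case of ATP1-111.

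Nar1 is an essential iron-sulfur protein of the cytosolic iron-sulfur assembly (CIA) machinery. In this pathway the Cfd1 and Nbp35 scaffold builds a cluster with electrons from Tah18 and Dre2, Nar1 hands the cluster on, and a targeting complex of Cia1, Cia2 and Met18 places it into cytosolic and nuclear enzymes. Among the recipients are DNA polymerases, primase, the ribosome-recycling factor Rli1 and amino acid enzymes such as Leu1. The pathway depends on the mitochondrial iron-sulfur cluster (ISC) machinery, which supplies a sulfur-containing compound through the Atm1 exporter. The transcription factor Aft1, which turns on the genes for iron uptake, is known to read the state of the mitochondrial pathway.

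The NAR1 column had values for 6192 of 6205 open reading frames, and 6151 had values in all 6 columns and were tested. The precision is limited by the number of arrays, and no spread between replicates came with the averages. For 13 genes the array carried 2 spots, and from these the SD of 1 spot was 0.237 (log2 scale, NAR1 column). In WT at 3, 11, 19 and 27 h it was 0.164, 0.176, 0.151 and 0.239. Each gene was tested with limma, p-values were adjusted by Benjamini-Hochberg over the 6151 genes, and 0.05 was the threshold. The test takes its spread from how far the 4 WT columns lie from a line in time, so the NAR1 column was assumed to vary as WT does. If it varies more than WT does, the test is too lenient. By the 13 genes with 2 spots, the NAR1 column was noisier than WT at 3, 11 and 19 h and close to WT at 27 h. Spots of 13 genes do not show how replicates vary, so the leniency was not measured. The median standard error of the test was 0.128 on the log2 scale, below the SD of 1 spot in the NAR1 column. The smallest fold called was 1.31. Genes whose WT time course is curved get large standard errors (SE), and for them the test is strict. For these reasons each result below gives the ratio itself. "Rose" and "fell" are used only of genes that passed.

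The median ratio of the column was 1.02, and ratios ran from 0.014 to 8.85. At least 2-fold higher were 135 genes (2.19% of those tested), and 229 genes (3.72%) were at least 2-fold lower. Beyond 4-fold the lower side was longer, with 41 genes against 11. By limma 819 genes rose (13.3%) and 686 fell (11.2%). The counts of calls given for each list below are to be read beside these shares. Of the genes past 2-fold, 133 of the 135 higher ones rose and 216 of the 229 lower ones fell. The limma counts depend on the other columns. Without the WT column at 19 h they were 432 and 411, without 11 h 534 and 526, and with all columns centred and scaled to the same spread 61 and 116. Median log2 ratios of the 16 chromosomes lay between -0.03 and 0.07, so the median of no chromosome was far from 0.

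The NAR1 transcript was the check of the treatment. Its ratio was 1.42, 1.63, 1.84 and 2.25 in WT at 3, 11, 19 and 27 h, 0.979 in ATP1-111 and 0.031 after repression. The NAR1 column was the only low one, and in it NAR1 fell by 5.01 on the log2 scale (SE 0.107, limma adjusted p = 0.000104). It was the fifth-lowest transcript of the array, and the 4 below it were GAL genes.

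**Figure D1:**
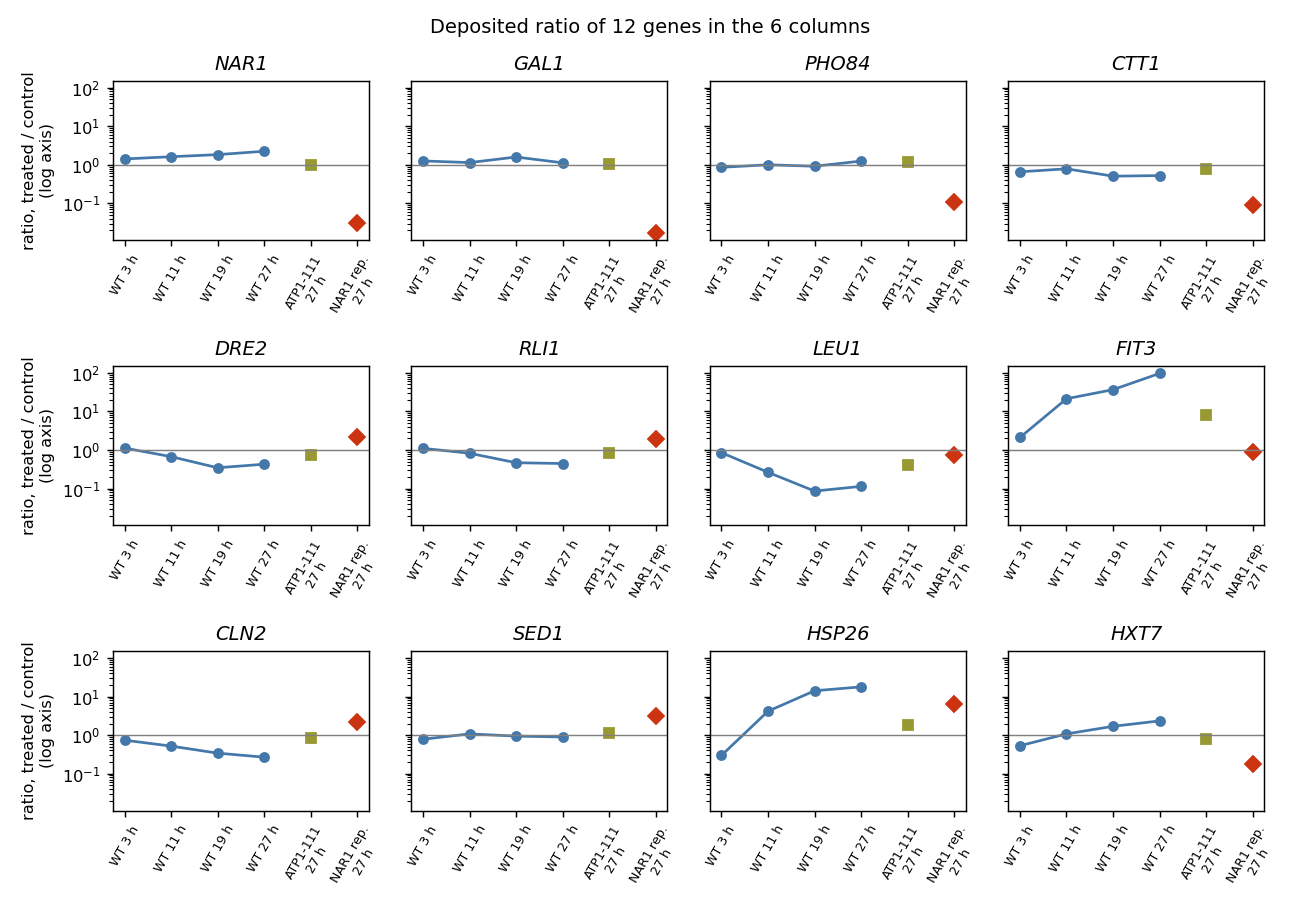
Deposited ratios (treated over control, log axis) of 12 genes in the 6 columns, with WT after mtDNA loss as joined circles, ATP1-111 as squares and NAR1 repression as diamonds. NAR1, GAL1, PHO84, CTT1 and HXT7 lie below 0.2 under NAR1 repression, DRE2, RLI1, CLN2 and SED1 lie above 1.9, and FIT3, at 96.8 in WT at 27 h, lies at 0.876.

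The genes on either side of NAR1 on chromosome XIV were read by gene order. ZWF1, the next gene on one side, had a ratio of 0.974, and SLA2 one of 0.954. ATG2, which lies between them and encodes an autophagy protein, fell to 0.477 (log2 -1.07, SE 0.109, limma adjusted p = 0.00671). On the other side LAP3, a cysteine aminopeptidase that is transcribed away from NAR1, fell to 0.19 (log2 -2.40, SE 0.14, limma adjusted p = 0.00171). KEX2, the next gene beyond LAP3, rose to 1.55, and YTP1 had a ratio of 0.937. The low values next to NAR1 were thus those of LAP3 and ATG2, with ZWF1 between NAR1 and ATG2 close to 1. LAP3 is also a known target of Gal4, and its values are given with those genes below.

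**Figure D2:**
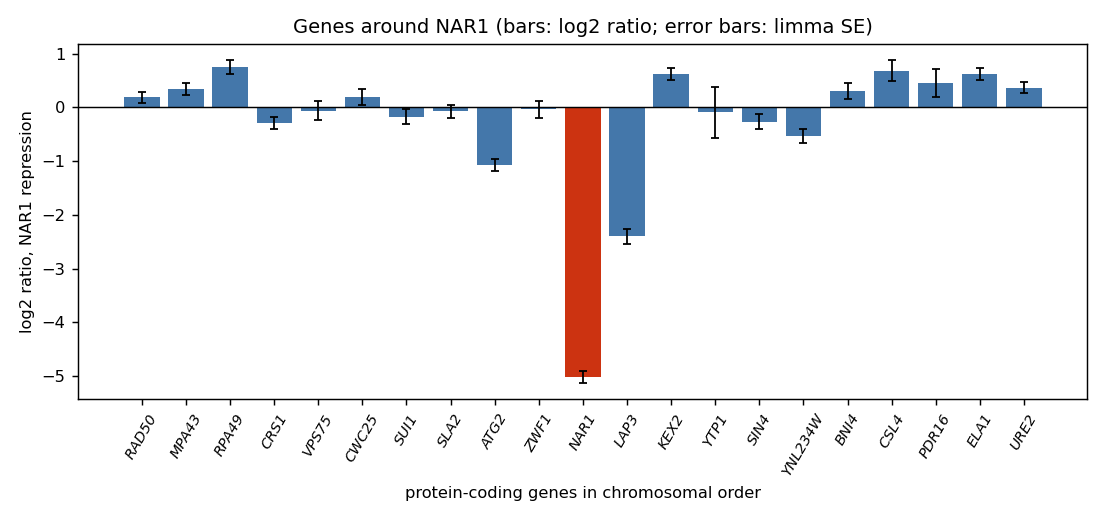
Log2 ratio under NAR1 repression of the protein-coding genes with values around NAR1, in chromosomal order (error bars are limma SE, which come from the WT columns). NAR1 at -5.01 and LAP3 at -2.40 are the lowest bars, and ATG2 at -1.07 is the only other one below -1.

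Genes activated by Gal4, the regulator of galactose use, were set apart because estradiol dose differed between the arms. Hybrid activators that join the Gal4 DNA-binding domain to the estrogen receptor are a common tool for estradiol control in yeast, and they act on Gal4 sites in the genome as well. All 11 listed targets were at least 2-fold lower, against 3.72% of all genes, and 10 of them fell (11.2% of all genes). GAL7, GAL1, GAL2 and GAL10, which encode the transferase, kinase, permease and epimerase of galactose use, stood at 0.014, 0.017, 0.019 and 0.027. LAP3 at 0.19, the inducer gene GAL3 at 0.201, the reductase gene GCY1 at 0.261, the repressor gene GAL80 at 0.346, the uracil permease gene FUR4 at 0.348 and the cyclin gene PCL10 at 0.379 fell less far. MTH1, a regulator of glucose-transporter genes, had a ratio of 0.265 that did not pass (adjusted p = 0.0608). Its WT ratios were 0.83 at 3 h, 8.72 at 19 h and 5.93 at 27 h, and MTH1 passed without the column at 3, 19 or 27 h.

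The GAL1 ratio was 1.26, 1.15, 1.60 and 1.13 in the WT columns and 1.04 in ATP1-111, so this transcript was low in the NAR1 column alone. For these 11 genes the median log2 ratio was -2.31 under NAR1 repression, against 0.20 in WT at 27 h and 0.03 over all genes in the NAR1 column. All 11 were lower than the fitted WT level at 27 h. In that contrast 12.1% of all genes were lower and 13.9% higher, and counts against the fitted WT level below are to be read beside these shares. With columns scaled to the same spread 9 of the 11 fell. Treated and control cells differed in estradiol as well as in NAR1, and the 2 cannot be told apart in these data for any gene below. Without the Gal4 list 218 genes were at least 2-fold lower.

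Among the other CIA genes, transcripts of the pathway were near or above 1. Of 10 genes tested, 3 rose (DRE2, LTO1 and CIA2) and only NAR1 fell, against 13.3% and 11.2% of all genes. DRE2, the electron carrier that works with Tah18, had ratios of 1.12, 0.672, 0.346 and 0.428 in WT at 3, 11, 19 and 27 h, 0.726 in ATP1-111 and 2.21 after NAR1 repression. The transcript was thus low where mtDNA had been lost for longer and high where NAR1 was repressed (log2 1.15, SE 0.288, limma adjusted p = 0.042). The gap to the fitted WT level at 27 h was 2.71 on the log2 scale (SE 0.375, limma adjusted p = 0.0102). Against 1, DRE2 did not pass without the 11 h column. LTO1, which with Yae1 acts as the adaptor that brings Rli1 to the targeting complex, rose to 1.86, while YAE1 was at 0.914. CIA2 rose to 1.41, and the other members of the targeting complex, MET18 and CIA1, were at 1.14 and 0.995. TAH18, NBP35 and CFD1 had ratios of 1.499, 1.34 and 1.20 and did not pass. Between 1 (without 11 h or 19 h) and 5 (without 3 h) of the 10 genes rose when a WT column was left out, and 0 did with scaled columns.

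The genes for the cytosolic and nuclear iron-sulfur proteins, the clients of the CIA machinery, stayed within 2-fold. Of 19 tested, 6 rose and 1 fell, against 13.3% and 11.2% of all genes, and 0 were at least 2-fold higher or lower. RLI1, which encodes the ribosome-recycling ATPase, had ratios of 1.10, 0.823, 0.467 and 0.446 in WT at 3, 11, 19 and 27 h, 0.831 in ATP1-111 and 1.94 after NAR1 repression. It rose (log2 0.95, SE 0.171, limma adjusted p = 0.0195), on the opposite side of 1 from WT at 27 h. PRI2, the large subunit of primase, rose to 1.69, and DPH1 of diphthamide synthesis to 1.49. The DNA glycosylase gene NTG2 and the TFIIH helicase gene RAD3 also rose, to 1.46 and 1.37. The list, and the 6 that rose, include MET10 (1.46), the flavoprotein subunit of sulfite reductase. It carries no cluster itself and is listed as the partner of Met5. MET5, which encodes the subunit with the cluster, fell to 0.718.

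The replicative polymerase genes POL1, POL2 and POL3 had ratios of 1.07, 0.975 and 0.97, and REV3 of translesion synthesis had 1.08. The helicase genes DNA2 and CHL1 stood at 1.37 and 1.22. For tRNA and diphthamide modification, ELP3 was at 1.11, TYW1 at 0.956 and DPH2 at 0.956. APD1 was at 0.775. None of these passed.

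LEU1 and GLT1, the 2 clients whose transcripts were lowest in WT at 27 h, were within 2-fold of 1 under NAR1 repression. LEU1, the isopropylmalate isomerase of leucine synthesis, had ratios of 0.852, 0.264, 0.086 and 0.114 in WT at 3, 11, 19 and 27 h, 0.404 in ATP1-111 and 0.753 in the NAR1 column. GLT1, glutamate synthase, had 0.95, 0.504, 0.236 and 0.234 in WT, 0.501 in ATP1-111 and 0.874 in the NAR1 column. Neither NAR1 value passed (limma adjusted p = 0.585 and 0.606). Their SEs on the log2 scale were large, 0.502 and 0.253, so changes of this size could not be told from none. The differences from the fitted WT level did pass, at 3.35 for LEU1 (SE 0.655, limma adjusted p = 0.0232) and 2.19 for GLT1 (SE 0.329, limma adjusted p = 0.0126). Over the list, 10 genes were higher than the fitted WT level and 0 lower, against 13.9% and 12.1% of all genes. The median log2 ratio was 0.11, against -0.37 in WT at 27 h. These counts lean on the WT columns: 2 genes rose without 11 h or without 19 h and 0 with scaled columns, and 3 were higher than WT without 19 h.

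The mitochondrial iron-sulfur proteins, which receive clusters from the ISC machinery, had lower transcripts for enzymes of the tricarboxylic acid (TCA) cycle. ACO1, aconitase, fell to 0.498, and SDH2, the iron-sulfur subunit of succinate dehydrogenase, to 0.612, though ACO1 did not pass without 19 h or without 27 h. Of 8 genes tested these 2 fell and 0 rose, against 11.2% and 13.3% of all genes. BIO2, biotin synthase, had a ratio of 0.534 that did not pass. The Rieske protein gene RIP1 (0.934), LYS4 (0.93) of lysine synthesis, LIP5 (1.00) of lipoate synthesis and ILV3 (1.03) of branched-chain amino acid synthesis were near 1. Over the 8 genes the median log2 ratio was -0.10, against -1.28 in WT at 27 h, and RIP1, LYS4 and ILV3 were among those higher than the fitted WT level.

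In the ISC machinery itself 3 of 21 genes tested rose and 3 fell, which is near the 13.3% and 11.2% of all genes, so that the values below describe single members. ISU2, the scaffold protein gene, had ratios of 1.01, 0.63, 0.871 and 1.08 in the WT columns, 0.951 in ATP1-111 and 3.20 after NAR1 repression, where alone it was high (log2 1.68, SE 0.271, limma adjusted p = 0.0159). Its paralog ISU1 was at 1.68 and did not pass. ISA1, needed for 4-iron clusters, rose to 2.75 and its partner ISA2 was at 0.898, while IBA57, which works with both, fell to 0.655. NFU1, which acts late in the pathway, rose to 1.56. The exporter gene ATM1 had a ratio of 1.07, the desulfurase gene NFS1 1.16, the frataxin gene YFH1 0.94 and the ferredoxin gene YAH1 1.07. GGC1, a mitochondrial GTP/GDP carrier, had ratios of 0.773, 0.686, 0.767 and 0.837 in the WT columns, 0.72 in ATP1-111 and 0.26 in the NAR1 column. It fell (log2 -1.94, SE 0.128, limma adjusted p = 0.00225), and so did MRS4, a mitochondrial iron carrier, to 0.589. GGC1 was the only one of the 21 that fell with scaled columns.

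Genes for uptake of iron bound to siderophores, the core of the Aft1 response, had ratios between 0.501 and 1.89 after NAR1 repression. FIT3, a cell-wall mannoprotein that retains siderophores, had ratios of 2.11, 21.3, 36.7 and 96.8 in WT at 3, 11, 19 and 27 h, 8.32 in ATP1-111 and 0.876 in the NAR1 column. Every mtDNA-loss column was above 2 and the NAR1 value was below 1. FIT2 (0.964), FIT1 (1.08) and the transporter genes SIT1 (1.00), ARN2 (1.35) and ARN1 (1.89) did not pass either, and ENB1, the enterobactin transporter gene, fell to 0.501 (SE 0.198 on the log2 scale, limma adjusted p = 0.0246). ARN1 passed without 3 h, without 27 h and with a line in log2 hours. The median log2 ratio of the 7 genes was 0.00, against 4.70 in WT at 27 h. All 7 were lower than the fitted WT level at 27 h, in the main fit and in each of the 4 that left out a WT column, and 4 were with scaled columns. The difference was -7.11 for FIT3 (SE 0.69, limma adjusted p = 0.00527) and -4.62 for FIT1 (SE 0.156, limma adjusted p = 0.000802).

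The reductive system, in which surface reductases and the Fet3 and Ftr1 complex take up free iron, had a share of calls near that of all genes (13.3%). Of 15 genes for reductive and vacuolar transport, 3 rose (2 without 11, 19 or 27 h), which were FET3 to 1.86, FRE2 to 1.48 and the vacuolar reductase gene FRE6 to 1.93. CCC2, the copper pump that loads Fet3, fell to 0.454. FET3 had ratios of 2.53, 3.94, 7.14 and 8.83 in WT at 3, 11, 19 and 27 h and 3.36 in ATP1-111, so its NAR1 value was the lowest of the 6 although above 1. FTR1 (0.943), FRE1 (0.903), FTH1 (1.14) and SMF3 (1.12) did not pass. The median log2 ratio was 0.14, against 1.70 in WT at 27 h, and 12 of the 15 were lower than the fitted WT level (between 10 and 14 when a WT column was left out). TIS11 (CTH2), which destabilises mRNAs of iron-using proteins when iron is scarce, was at 1.13, against 4.95 in WT at 27 h. None of the 5 tested genes of the list of iron sparing and other Aft targets rose or fell.

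The iron-sensing genes AFT1 (1.13), AFT2 (1.18), GRX3 (1.04), BOL2 (1.03) and FRA1 (0.924) were near 1. GRX4, a glutaredoxin that restrains Aft1, had ratios of 0.86, 0.573, 0.458 and 0.46 in the WT columns, 0.701 in ATP1-111 and 2.05 after NAR1 repression. It rose (log2 1.04, SE 0.165, limma adjusted p = 0.0154) and was above 1 in the NAR1 column alone. CCC1, which moves iron into the vacuole, was likewise above 1 in the NAR1 column alone, with 0.817, 0.696, 0.603 and 0.47 in WT, 0.906 in ATP1-111 and 1.62 in the NAR1 column (log2 0.69, SE 0.109, limma adjusted p = 0.0148). GRX4 and CCC1 are known targets of Yap5, the activator that responds to high iron, as are TYW1 and the metallothionein gene CUP1-1. CUP1-1 rose to 2.04 (0.539 in WT at 27 h) and TYW1 was at 0.956 (0.639 in WT at 27 h). These 4 were put together after their values were seen, so no count is read from them. YAP5 itself was at 1.24. GRX4 and CCC1 rose in each fit that left out a WT column and did not pass with scaled columns.

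**Figure D3:**
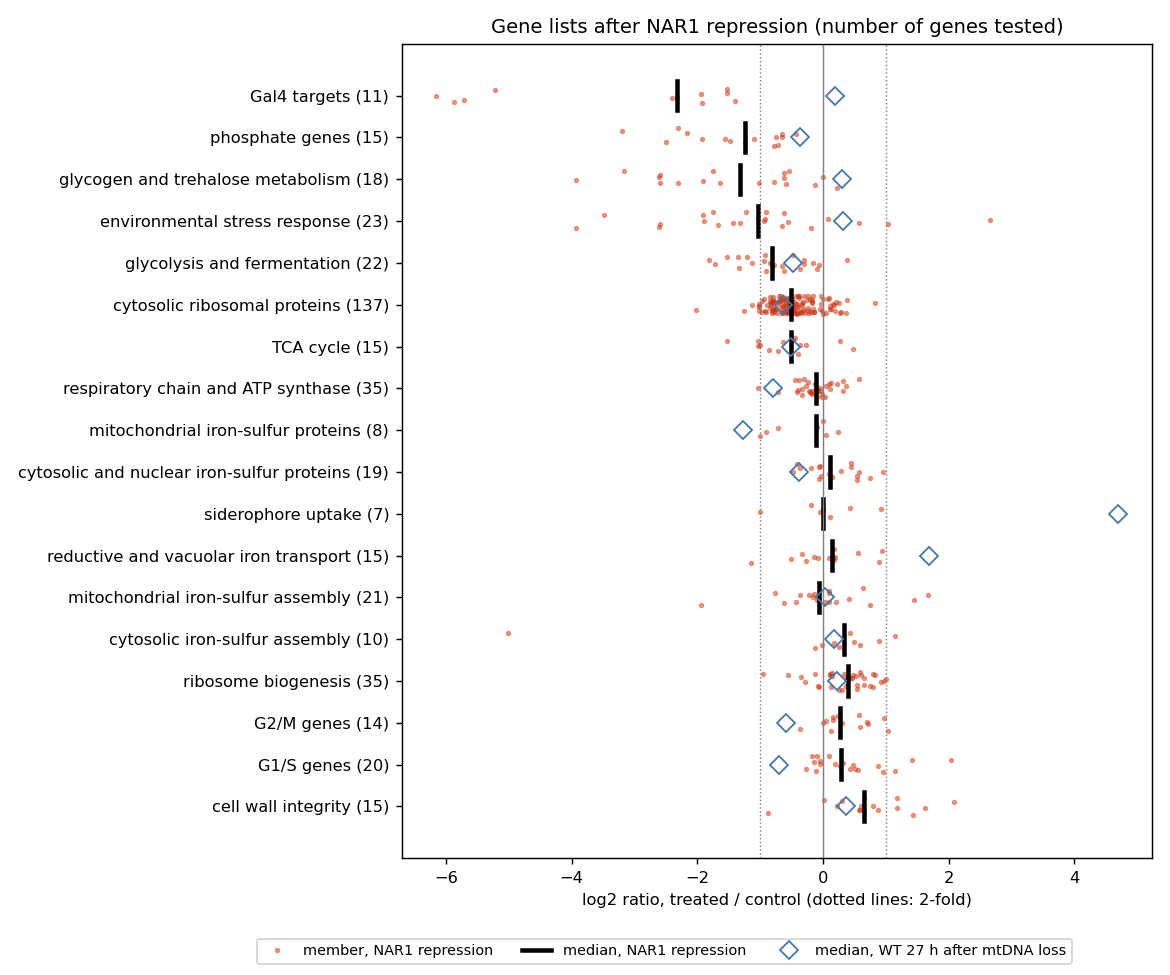
Log2 ratio under NAR1 repression of each tested member (points) of 18 gene lists, with the list's median (bar) and its median in WT at 27 h after mtDNA loss (open diamond). Dotted lines mark 2-fold. The Gal4 targets, phosphate genes and glycogen genes lie lowest, and the siderophore genes have a median of 0.00 against 4.70 in WT.

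Amino acid pathways that use iron-sulfur enzymes had few calls, at shares no higher than the 13.3% and 11.2% of all genes in the leucine and lysine lists. In leucine, isoleucine and valine synthesis 1 of 12 genes rose (the regulator LEU3, to 1.41) and 1 fell (LEU4, to 0.721), and the median log2 ratio was -0.20. BAT1 was at 0.739 and ILV5 at 1.36, and both were higher than the fitted WT level. In lysine synthesis 1 of 9 rose, the regulator LYS14 to 1.40. Without 11 h or without 19 h neither list had a call. For ammonium, the permease gene MEP3 rose to 2.45 and the glutamine synthetase gene GLN1 fell to 0.592. The glutamate dehydrogenase genes GDH1 (0.432) and GDH3 (0.448) did not pass in the main fit but did without 3 h or 11 h. With a line in log2 hours 2 genes of this list fell, against 1 in the main fit.

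Arginine synthesis held a member far from the rest. ARG4, argininosuccinate lyase, had ratios of 0.653, 1.12, 1.43 and 1.78 in WT at 3, 11, 19 and 27 h, 0.584 in ATP1-111 and 0.163 in the NAR1 column (log2 -2.62, SE 0.15, limma adjusted p = 0.00171). The other 8 genes lay between -0.77 and 0.88 on the log2 scale, with ARG7 (0.588) among those that fell and CPA1 (1.84) the one that rose. Without 19 h 1 gene of the list fell. Of the 9, 7 were lower than the fitted WT level.

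The sulfate and methionine genes, whose route runs through the iron-sulfur enzyme sulfite reductase, went both ways. Of 25 genes 8 fell and 5 rose, against 11.2% and 13.3% of all genes. STR3, cystathionine beta-lyase, fell to 0.355, the methylenetetrahydrofolate reductase gene MET13 to 0.37 and MET17, homocysteine synthase, to 0.454, and MET6, methionine synthase, had a ratio of 0.453 that did not pass. The permease genes MMP1 (2.00) and MUP1 (1.68) rose. Without 11 h 2 rose, without 19 h 0 rose and 5 fell, and with scaled columns 0 did either. In purine synthesis ADE57 (listed elsewhere as ADE5,7), ADE17 and ADE6 fell to 0.427, 0.529 and 0.673, and GCV1 of the glycine cleavage system had a ratio of 1.94 that did not pass. Of these 16 genes 3 fell and 0 rose, against 11.2% and 13.3% of all genes, but 4 rose without 27 h and 2 without 3 h.

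Transcripts of the TCA cycle had a median log2 ratio of -0.50. Of its 15 genes 7 fell and 0 rose, against 11.2% and 13.3% of all genes. At least 2-fold lower were 4, against 3.72% of all genes: MDH1, malate dehydrogenase (0.347), SDH1 (0.49), FUM1 (0.49) and ACO1 (0.498). IDH1 and IDH2, the isocitrate dehydrogenase subunits, were at 1.40 and 1.21. With scaled columns 1 gene fell. Of 35 genes of the respiratory chain and ATP synthase 2 fell, which were SDH1 and SDH2, and 0 rose. Both shares were below the 11.2% and 13.3% of all genes. The median log2 ratio of the 35 was -0.12, against -0.79 in WT at 27 h, and 14 were higher than the fitted WT level (23 without 3 h, 7 without 19 h and 6 without 27 h). COX4 was at 0.771 against 0.258 in WT at 27 h, CYT1 at 0.923 against 0.199 and QCR2 at 1.48 against 0.286.

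CIT2, peroxisomal citrate synthase and the marker gene of the retrograde response to failing mitochondria, had ratios of 1.00, 2.35, 2.86 and 4.40 in WT at 3, 11, 19 and 27 h, 1.18 in ATP1-111 and 1.23 in the NAR1 column. The NAR1 value did not pass (adjusted p = 0.337), and it was lower than the fitted WT level by 1.93 on the log2 scale (SE 0.272, limma adjusted p = 0.0107). Of the 8 retrograde targets 0 rose and 2 fell, against 13.3% and 11.2% of all genes. Those that fell were ACO1 and PYC1, PYC1 to 0.528.

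Haem and sterol synthesis, which need iron, were each lower in part. HEM13, which is turned up when oxygen or haem is short, fell to 0.379, the ferrochelatase gene HEM15 to 0.497 and HEM14 to 0.612. Of 7 haem genes these 3 fell and 0 rose, against 11.2% and 13.3% of all genes. Of 23 ergosterol genes 7 fell, against 11.2% of all genes, led by ERG6 (0.404) and ERG3 (0.495), and ERG8 rose to 1.60. The late enzymes ERG11 (0.928), ERG5 (1.45) and ERG25 (0.787) did not pass. ERG5 was at 0.195 in WT at 27 h, and 10 of the 23 were higher than the fitted WT level and 4 lower (7 and 2 without 19 h). Of 17 hypoxic genes 3 fell and 1 rose, against 11.2% and 13.3% of all genes. CYC7, the hypoxic form of cytochrome c, fell to 0.294, AAC3 to 0.599 and EUG1 to 0.674, and SUT1 rose to 1.72. The anaerobic cell-wall genes DAN1, TIR1 and TIR4 were at 1.21, 0.902 and 1.02, against 13.6, 12.5 and 38.2 in WT at 27 h.

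Many storage carbohydrate genes were low after NAR1 repression. Of 18 genes of glycogen and trehalose metabolism 10 were at least 2-fold lower and 12 fell, against 3.72% and 11.2% of all genes. The list was added after values were seen, so these counts describe its members and are no test of the group. PGM2, phosphoglucomutase, stood at 0.066, the glycogen synthase genes GSY1 and GSY2 at 0.112 and 0.164, the branching enzyme gene GLC3 at 0.165, the phosphorylase gene GPH1 at 0.166 and the phosphatase regulator GAC1 at 0.203. In trehalose synthesis TPS2 fell to 0.266 and TSL1 to 0.298, and TPS1 was at 0.648 without passing. The trehalase genes NTH1 (0.92), NTH2 (1.00) and ATH1 (1.17) did not pass. PGM2 had ratios of 0.422, 1.28, 2.75 and 1.43 in WT at 3, 11, 19 and 27 h and 1.19 in ATP1-111, so its NAR1 value lay below the whole range of the other columns. Its curved time course gives it a large error (log2 -3.92, SE 0.58, limma adjusted p = 0.0131), and with scaled columns 0 of the 18 fell. PGM2 also serves galactose use. PGM2 and GSY2 are on the stress list described next as well, so the lists overlap.

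The environmental stress response, a set of genes that yeast turns on under many stresses, was low as a group with a few exceptions. Of 23 genes tested 12 were at least 2-fold lower, 2 at least 2-fold higher and 15 fell, against 3.72%, 2.19% and 11.2% of all genes. CTT1, the cytosolic catalase, had ratios of 0.66, 0.79, 0.509 and 0.527 in WT at 3, 11, 19 and 27 h, 0.79 in ATP1-111 and 0.089 in the NAR1 column. It was below 1 in all 6 and lowest under NAR1 repression (log2 -3.49, SE 0.19, limma adjusted p = 0.00171). Also at least 2-fold lower were GAD1 (0.268), DCS2 (0.314), TFS1 (0.371), GLK1 (0.428) and the Hsp70 gene SSA4 (0.487), which all fell, and HXK1 (0.401), which did not pass.

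Of the 23 stress genes 4 had ratios above 1, and the 2 at least 2-fold higher were the heat-shock genes HSP26 and HSP12. HSP26 had ratios of 0.298, 4.17, 14.2 and 17.8 in WT, 1.88 in ATP1-111 and 6.32 in the NAR1 column, where it was the second-highest of the array (log2 2.66, SE 0.76, adjusted p = 0.058). HSP12 was at 2.06, and neither passed, although HSP26 did without 3 h, 11 h or 27 h. As a list they had a median log2 ratio of -1.04, against 0.33 in WT at 27 h, and 17 of the 23 genes were lower than the fitted WT level. Between 13 and 17 fell when a WT column was left out, and 2 did with scaled columns.

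Of 21 oxidative defence genes 8 fell and 0 rose, against 11.2% and 13.3% of all genes. Beside CTT1 the 8 included GSH1 of glutathione synthesis (0.43), the glutathione reductase gene GLR1 (0.529) and the superoxide dismutase genes SOD2 (0.521) and SOD1 (0.648). Of 20 chaperone genes 4 fell and 3 rose, against 11.2% and 13.3% of all genes. The mitochondrial SSC1 (0.479) and HSP60 (0.485) fell, as did BTN2 (0.526) and SSB1 (0.637). SSE2 (2.29), AHA1 (1.62) and FES1 (1.46) rose, of which 1 did without 19 h. The cytosolic HSP82 (0.914) and SSA1 (0.743) did not pass.

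The phosphate genes, which the Pho4 factor activates when phosphate is short, were all below 1. Of 15 genes 9 were at least 2-fold lower and 11 fell (between 10 and 15 when a WT column was left out, 6 with scaled columns), against 3.72% and 11.2% of all genes. PHO84, the high-affinity phosphate transporter, had ratios of 0.864, 1.00, 0.921 and 1.25 in WT at 3, 11, 19 and 27 h, 1.19 in ATP1-111 and 0.109 in the NAR1 column. It was low there alone (log2 -3.20, SE 0.145, limma adjusted p = 0.0012). The polyphosphate polymerase subunit genes VTC3, VTC4 and VTC1 fell to 0.177, 0.338 and 0.36, the acid phosphatase genes PHO11 and PHO12 to 0.203 and 0.223, and the regulator gene SPL2 to 0.263. PHO8, the vacuolar phosphatase, fell to 0.424 and the kinase inhibitor gene PHO81 to 0.469. PHO5, the main secreted phosphatase, had a ratio of 0.609 that did not pass. Across the list the median was -1.24 on the log2 scale, against -0.37 in WT at 27 h. PHO11 and PHO12 are near-identical copies, as are HXT6 and HXT7, and the 2 of a pair may share signal on an array.

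Glycolytic genes fell at many of the pathway's steps. Of 22 genes of glycolysis and fermentation 7 were at least 2-fold lower, 13 fell and 0 rose, against 3.72%, 11.2% and 13.3% of all genes. The median log2 ratio was -0.80, and 6 genes fell with scaled columns. The alcohol dehydrogenase genes ADH2, ADH1 and ADH5 fell to 0.284, 0.303 and 0.396, PGK1 to 0.348, the enolase genes ENO1 and ENO2 to 0.39 and 0.435 and FBA1 to 0.456. The glyceraldehyde dehydrogenase genes TDH3 (0.534) and TDH2 (0.561) and the pyruvate kinase gene CDC19 (0.53) fell as well. PGI1 (0.899), TPI1 (0.957) and the decarboxylase gene PDC1 (0.812) did not pass.

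Of 11 hexose transporters and their regulators 3 fell (5 without 3 h) and 2 rose, against 11.2% and 13.3% of all genes. The high-affinity carriers HXT6 and HXT7 fell to 0.165 and 0.174 and HXT4 to 0.43. HXT7 had ratios of 0.531, 1.08, 1.69 and 2.34 in WT and 0.796 in ATP1-111. The low-affinity carriers HXT1 and HXT3 were at 1.19 and 1.55 and did not pass. The glucose sensor gene RGT2 rose to 1.69 and the glucose-induced repressor gene MIG2 to 4.17 (adjusted p = 0.0498). MIG2 did not pass without 11 h, without 19 h, or with centred or scaled columns.

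Cell wall genes had the highest median of the gene lists, 0.66 on the log2 scale. Of 15 genes linked to the cell wall integrity pathway 5 were at least 2-fold higher, against 2.19% of all genes, and 9 rose, against 13.3%. SED1, an abundant wall glycoprotein, had ratios of 0.782, 1.08, 0.942 and 0.894 in WT at 3, 11, 19 and 27 h, 1.15 in ATP1-111 and 3.07 in the NAR1 column (log2 1.62, SE 0.173, limma adjusted p = 0.00731). The aspartyl protease gene YPS3 rose to 4.23, PST1 to 2.71, SLT2, the MAP kinase of the pathway, to 2.27 and the crosslinking enzyme gene CRH1 to 2.25. GSC2, the inducible glucan synthase (1.83), and CHS3, a chitin synthase (1.74), also rose, and CWP1 was at 0.544 without passing. Part of the list was high after mtDNA loss too: YPS3, PST1 and SLT2 were at 3.28, 2.31 and 1.72 in WT at 27 h and their differences from the fitted WT level did not pass, while that of SED1 did (difference 1.68, SE 0.226, limma adjusted p = 0.00948). Without 19 h 6 of the 15 rose, and with scaled columns 1 did.

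The G1/S and G2/M lists had medians above 0 on the log2 scale, where WT at 27 h had medians below 0. Of 20 genes of the G1/S transition 5 rose and 0 fell, against 13.3% and 11.2% of all genes. They were SVS1 (4.10), PCL2 (2.69), CLN2 (2.23), HCM1 (1.93) and CLN1 (1.84). CLN2, a G1 cyclin, had ratios of 0.74, 0.519, 0.341 and 0.268 in WT at 3, 11, 19 and 27 h, 0.844 in ATP1-111 and 2.23 under NAR1 repression, the only value above 1 (log2 1.16, SE 0.115, limma adjusted p = 0.00663). The replication genes POL30 (0.889), RFA1 (0.928) and CDC21 (0.973) did not pass. The median log2 ratio was 0.30, against -0.70 in WT at 27 h, and 15 of the 20 were higher than the fitted WT level, against 13.9% of all genes. Leaving out a WT column gave between 4 and 8 that rose (8 without 3 h) and between 11 and 14 higher than WT.

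Of 14 G2/M genes 6 rose and 0 fell, against 13.3% and 11.2% of all genes. The mitotic cyclin CLB2 was at 2.06, MOB1 at 1.96, CDC20 at 1.65 and the polo kinase gene CDC5 at 1.62. The median of the 14 was 0.27, against -0.59 in WT at 27 h, and 11 were higher than the fitted WT level (7 without 19 h). With scaled columns 2 G1/S and 1 G2/M genes rose. The daughter-cell and M/G1 list of 14 had 1 gene that rose (PST1) and 1 that fell (SUN4, 0.478), against 13.3% and 11.2% of all genes. RNA came from whole cultures, so a change in the share of cells in a phase and a change in RNA per cell cannot be told apart.

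Ribosomal protein genes were slightly lower and ribosome biogenesis genes slightly higher. Of 137 cytosolic ribosomal protein genes 37 fell and 1 rose, against 11.2% and 13.3% of all genes. The median log2 ratio of the 137 was -0.51, against -0.63 in WT at 27 h. The count that fell moved with the WT columns, from 10 without 19 h to 76 without 3 h and 64 without 27 h, and 0 fell with scaled columns. The ratios were below 1 for 119 of the 137. Of 35 biogenesis genes 9 rose and 2 fell, against 13.3% and 11.2% of all genes, and the list had a median of 0.40. ERB1 rose to 2.02, IMP3 to 1.97 and MAK16 to 1.90, and the snoRNP genes NOP56 (0.519) and NOP1 (0.678) fell. Without 27 h 16 of the 35 rose, and with scaled columns 0 did. Of 56 mitochondrial ribosomal protein genes 3 fell (9 without 3 h and 0 without 19 h), against 11.2% of all genes, and the list had a median of -0.18.

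Of 31 proteasome genes 28 did not pass and their median log2 ratio was 0.04, but RPT1, an ATPase subunit of the base, had a ratio of 0.247 (log2 -2.02, SE 0.111, limma adjusted p = 0.00171). The other 30 lay between -0.54 and 0.45. RPL18B was similarly low among the ribosomal proteins, at -2.02, with the other 136 between -1.25 and 0.84. GGC1 at -1.94 stood apart from the other 20 ISC genes, which lay between -0.76 and 1.68. These 3 genes and ARG4 were picked out after their values were seen.

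**Figure D4:**
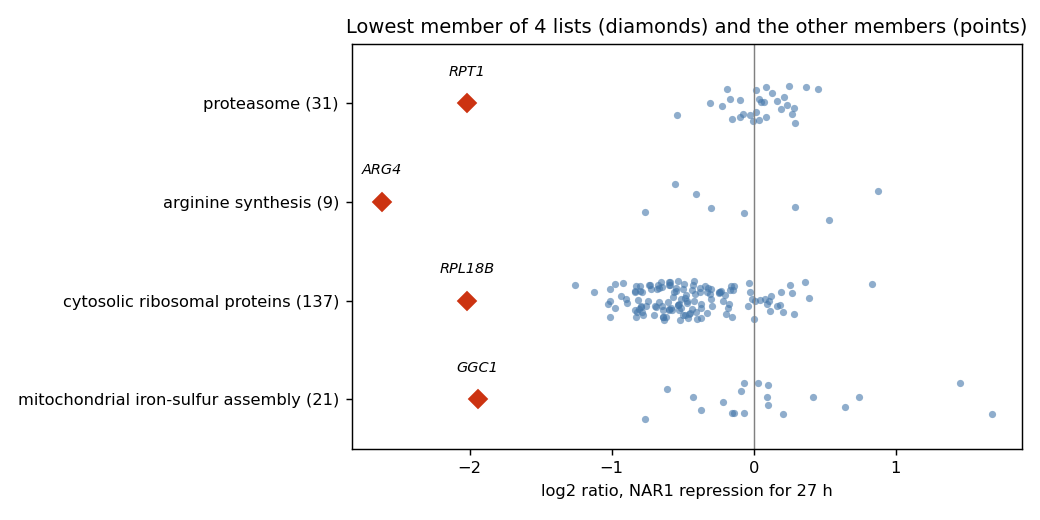
Log2 ratio under NAR1 repression of the members of 4 gene lists (number tested in brackets), with the lowest member of each as a labelled diamond and the others as points. RPT1, ARG4, RPL18B and GGC1 lie between -2.62 and -1.94, each below every other member of its list.

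Of 17 DNA damage genes 3 rose and 5 fell, against 13.3% and 11.2% of all genes. RNR1 (1.89) and DIN7 (1.74) were among those that rose, and RNR2 (0.372), PHR1 (0.439), MAG1 (0.603), RAD16 (0.651) and RFX1 (0.691) fell. RNR3, the damage-induced ribonucleotide reductase subunit, was at 1.38 and did not pass. Without 3 h 6 of the 17 rose, and with scaled columns 1 fell and 0 rose. Of 15 targets of the drug-resistance factors Pdr1 and Pdr3, 4 rose and 1 fell, against 13.3% and 11.2% of all genes. PDR3 itself rose to 1.98, with SNQ2 (1.61), ICT1 (1.57) and PDR10 (1.38), while TPO1 fell to 0.537. PDR5 was at 0.714, against 5.23 in WT at 27 h, and without 19 h 0 of these genes rose.

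In the smaller nutrient lists VHR1, the regulator of biotin genes, fell to 0.387, and BIO5, the biotin-precursor permease, was at 1.51 against 12.9 in WT at 27 h. RIB4 of riboflavin synthesis fell to 0.387, while RIB2 (1.62) and RIB7 (1.496) rose. The copper transporter gene CTR1 fell to 0.582. Of 13 zinc genes 1 rose, the vacuolar exporter gene ZRT3 to 1.52, and 0 fell, against 13.3% and 11.2% of all genes. Of 11 genes of gluconeogenesis and the glyoxylate cycle 3 fell and 0 rose, against 11.2% and 13.3% of all genes. Those that fell were MDH3 (0.627), ACS1 (0.685) and JEN1 (0.727), and without 19 h 1 gene of the list fell.

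The highest transcripts that rose held wall and morphogenesis genes beside some of unknown role. NCA3, a SUN-family gene, had ratios of 1.36, 2.47, 4.66 and 8.77 in WT at 3, 11, 19 and 27 h, 1.53 in ATP1-111 and 8.85 in the NAR1 column, so that it was about equally high in WT at 27 h. YOR338W (5.99) and YRO2 (3.22) were also high in WT at 27 h, at 12.1 and 3.96. KTR2, a mannosyltransferase (5.53), GIC2, a Cdc42 effector (5.06), PLB3, a phospholipase (4.99), PRY2 (4.65), ARO10, a decarboxylase of amino acid breakdown (4.57), and CSI2 (3.65) were higher than the fitted WT level. GIC2 had ratios between 0.875 and 0.951 in the 4 WT columns and 1.04 in ATP1-111. TYE7, an activator of glycolytic genes, rose to 3.78, NDJ1, of meiotic telomeres, to 3.42 and the cell-cycle repressor gene YOX1 to 3.35.

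Beyond the genes already described, the lowest that fell were ADH6, an NADPH-dependent alcohol dehydrogenase (0.109), YMR084W (0.132), the transcription factor gene CIN5 (0.147) and REE1 (0.161). ADH6 had ratios between 0.915 and 1.02 in the WT columns and 1.26 in ATP1-111. At the 2-fold line PDR12 (2.003) and NAF1 (2.001) lay just inside and PPR1 and DON1 (both 1.998) just outside. On the lower side URA6 and ACH1 (both 0.499) lay inside and ILS1 and ENB1 (both 0.501) outside.

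Set against mtDNA loss over all 6151 genes, NAR1 repression gave a weakly similar profile. Pearson's r across genes with the NAR1 column was 0.21, 0.14, 0.09 and 0.19 for WT at 3, 11, 19 and 27 h and 0.09 for ATP1-111. Genes are not independent replicates, so these values are a description. The NAR1 arm had its own strain and control RNA. Of its 135 genes at least 2-fold higher, 46 were also at least 2-fold higher in WT at 27 h. That is 34.1% of the NAR1 list, beside 318 of all 6151 genes higher in WT. It is also 14.5% of those 318, beside 2.19% of all genes higher in the NAR1 column. Of the 229 lower genes 15 were shared. They are 6.55% of the NAR1 list, beside 174 of all 6151 genes lower in WT. They are also 8.62% of those 174, beside 3.72% of all genes lower in the NAR1 column. A further 23 genes were lower under NAR1 repression and higher in WT. The 23 are 7.23% of the 318 in WT, also against 3.72% of all genes. The reverse held for 9 of the 135 higher genes, beside 174 of all 6151 genes lower in WT. With ATP1-111, which had 40 higher and 22 lower genes, none was shared in the same direction. Lists this short out of 6151 genes leave little room for overlap, and 4 genes were lower under NAR1 repression and higher in ATP1-111, with 1 the reverse.

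By the fitted difference at 27 h, 856 genes were higher under NAR1 repression than in WT (13.9%) and 744 lower (12.1%). The furthest above WT were ARO10 (difference 3.71, SE 0.215), YOX1 (3.69), CSI2 (3.44), LEU1 (3.35), SVS1 (3.17), CLN2 (3.11), ERG5 (3.04), SCM4 (2.85), OAC1, an oxaloacetate and isopropylmalate carrier (2.75), and DRE2 (2.71). Of these, LEU1, ERG5, SCM4 and OAC1 had not passed against 1 in the NAR1 column, and their WT ratios at 27 h were 0.114, 0.195, 0.312 and 0.297. The furthest below WT were FIT3 (-7.11), ARN2 (-6.47), GAL2 (-6.32), GAL1 (-6.22), NAR1 (-6.15), GAL7 (-5.61), MTH1 (-5.18), PGM2 (-5.15), GAL10 (-5.15) and BDH2 (-5.10). For FIT3 and ARN2 the WT level was high and the NAR1 ratio near 1, while for the GAL genes and NAR1 it was the NAR1 column that was low. The fitted WT level can lie further from 0 than the measured one. For PGM2, MTH1, BDH2 and LEU1 the fitted log2 levels were 1.23, 3.26, 3.50 and -3.75. The measured ones were 0.52, 2.57, 2.84 and -3.13, so the measured gaps were smaller. For NAR1 and GAL2 the fitted 1.14 and 0.60 were close to the measured 1.17 and 0.62. The counts depend on the WT columns, with 220 higher and 314 lower without 19 h and 65 and 172 with scaled columns. Centring each column on its median moved the split to 629 higher and 908 lower.

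**Figure D5:**
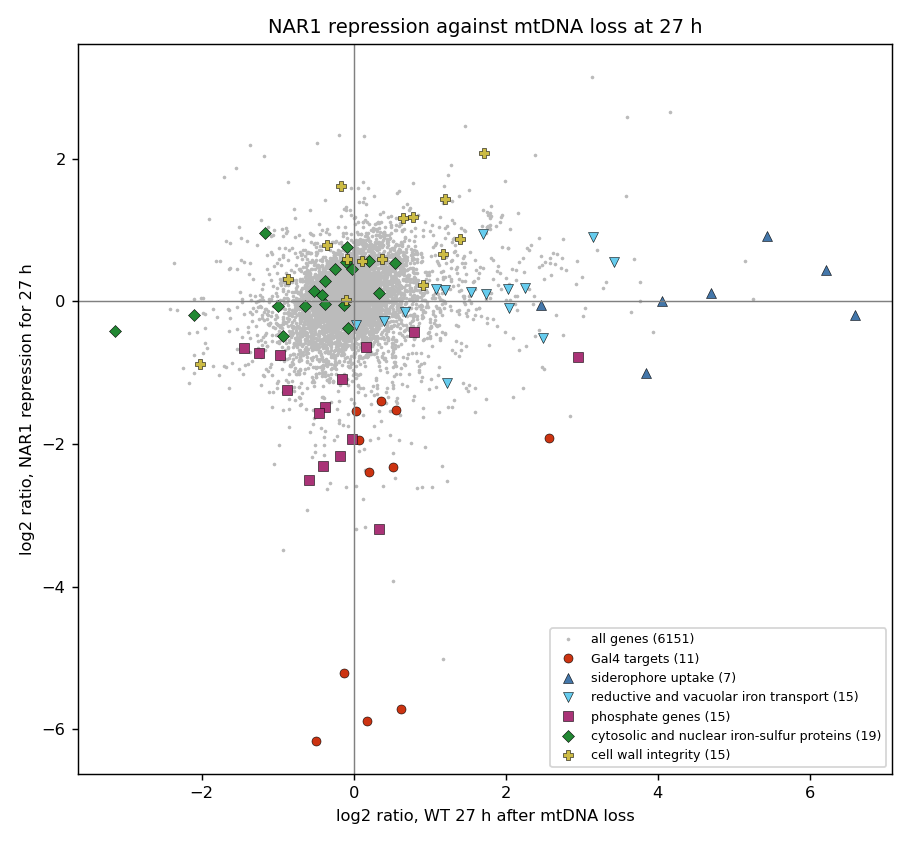
Log2 ratio of 6151 genes under NAR1 repression (vertical axis) against WT at 27 h after mtDNA loss (horizontal axis), with 6 gene lists marked. Siderophore genes lie far right near 0 on the vertical axis, Gal4 targets and phosphate genes lie low, and r across all genes is 0.19.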

How the data were processed

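Arrays with 2 colours compared treated with control RNA. Per the labels, the deposited value of each gene and condition is the authors' average ratio over 6 arrays (5 for ATP1-111), from 3 biological replicates in both dye orientations. The direction, treated over control, was read from the sample titles. The sources used here do not state the scanner, how background and arrays were corrected, or what kind of average was taken, and no error came with the values. The array count limits the precision.

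From the 6259 rows, 28 control rows were left out. Ratios were taken to log2, and 13 genes with 2 spots took their mean, for 6205 reading frames in all. A symbol from the RefSeq gene table (assembly R64) was found for 5705, and the other 500 kept the systematic name. Tests used the 6151 genes with all 6 values. limma 3.58.1 (R 4.3.3) fitted WT as a line in hours (slope and level at 27 h), and ATP1-111 and NAR1 repression each as a level of their own. The spread came from the 4 WT columns (2 residual degrees of freedom, 3.35 prior). Tests were two-sided. If the WT columns share a control RNA, its noise is not in the spread. The fit was also run on simulated data. There the NAR1 column varied as WT did and WT followed a line in time, so these assumptions were not tested.

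Lists hold 835 members, 822 tested. The members and lists were chosen with earlier results of these data known. No set test was made. Named were the 15 highest that rose and 15 lowest that fell, the 10 largest differences from WT each way, all members of the CIA, iron-sulfur protein, siderophore and Gal4 lists, up to 4 members of each other list with the largest absolute values, 3 neighbours of NAR1 on each side, the 2 genes nearest 2-fold on each side, and CIT2. Some genes that the rule would name are not reported here. Other names were chosen after their values were seen. Alternatives left out each WT column, used log2 hours, no moderation, centred or scaled columns, and other fold sizes.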

Additional observations from a re-analysis of the deposited data

How the results depend on the processing

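No paired analysis was possible because each condition is 1 averaged column without replicate numbers. No named gene that was called changed sign under the alternatives run. The median log2 ratio of the DNA damage list, 0.029, became -0.0042 with centred and -0.0032 with scaled columns. The balance of calls turned: centring gave 726 that rose and 751 that fell against no change, and 629 higher and 908 lower than WT. For the test against no change, leaving out 1 WT column gave between 432 and 1052 genes that rose and between 411 and 930 that fell, lowest without 19 h. Ordinary least squares, which has 2 degrees of freedom, called 0 in either direction (997 higher and 749 lower at an unadjusted p under 0.05, against 1375 and 1140 with moderation). Scaled columns left 61 and 116, and the cause was not tested. For the difference from WT, leaving out 1 WT column gave between 220 and 950 higher and between 314 and 890 lower. Ordinary least squares gave 0 and 0 (1029 and 699 unadjusted), and scaled columns 65 and 172. A 2-fold gap between the 2 columns, an alternative chosen after seeing the data, gave 255 and 446. By size alone 597 and 621 genes passed 1.5-fold, 24 and 68 passed 3-fold, and 39 and 119 passed 2-fold with scaled columns. Centring, all genes in the column, or the first spot of each gene kept both 2-fold counts within 1.5 times, as log2 hours did for the tests. Under scaling the Gal4 median moved from -2.31 to -1.78, the phosphate median from -1.24 to -0.96 and the glycogen median from -1.33 to -1.03. Of the 230 named genes 29 lost their call against no change without 19 h, among them LTO1, CIA2, DPH1, MET10, NTG2, RAD3, FRE2, MET17, ARG7, PDR3 and SNQ2. Without 11 h 16 did, without 27 h 3 did (ACO1, RPN9 and FRE2), and without 3 h none did. The count of promoter motifs was not run, since promoter sequences were not used here. Ratios without spot intensities give no measure of signal over background, so values of dim spots cannot be told from those of bright ones.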
